A study of Mus musculus with 4 samples.

Results

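The G2/M and mitosis genes are a set of 43 genes that act in the last phase before cell division and in division itself: cyclins, mitotic kinases, the spindle checkpoint, kinetochore and spindle proteins, and the proteins of cytokinesis. They were found on the arrays by their names, as the non-control probes whose gene name in the scanner files equalled a member. This gave 63 probes for all 43 genes, of 55681 non-control probes for 34844 gene names. Each gene was represented by its brightest probe, taken as the probe with the highest mean processed signal over the 4 arrays, and its other probes served as a check. Of the 43 genes, 42 were well above background on all 4 arrays, and Cenpf was well above background on the WT MPP array alone.

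Expression was measured on 4 one-colour (Cy3) Agilent arrays, 1 for each of 4 groups of mouse haematopoietic cells: cKO LT-HSC, WT LT-HSC, cKO MPP and WT MPP. The donors were 10-week-old male C57BL/6J (Ly5.2) mice, and cKO donors carried a conditional knockout of p38, which the study's title gives as p38 alpha, while WT donors were wild type. LT-HSC (long-term haematopoietic stem cells) were CD34- Flt3- LSK marrow cells and MPP (multipotent progenitors) were CD34+ Flt3+ LSK marrow cells, LSK being the stem and progenitor fraction negative for lineage markers and positive for Sca-1 and Kit. All 4 groups were stained with the division dye CFSE, transplanted into Ly5.1 congenic mice irradiated with 9.5 Gy, and sorted again as CFSE-positive cells 16 h later, so no group was of unmanipulated cells. The Cre driver, the deleted exons and the number of mice behind each array were not given in the sources used here.

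Cells enter mitosis when cyclin-dependent kinase 1, bound to cyclin A or cyclin B, is switched on by CDC25 phosphatases. The spindle checkpoint then holds the cell until every kinetochore is attached to microtubules, after which the anaphase-promoting complex marks cyclin B and securin for destruction and the chromosomes separate. The mRNAs of most of these proteins are periodic in the cell cycle, low in resting and early G1 cells and highest in G2 and M. The factors known to drive them include NF-Y, which binds CCAAT boxes, and the MuvB complex with B-MYB and FOXM1, which contacts the cell cycle homology region, an element close to the start site with the core TTTGAA or TTTAAA.

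Promoter windows of RefSeq (mouse GRCm38.p6, 250 bases before to 50 bases after a gene's start) were matched by symbol for 36 of the 43 genes. Windows for Ccna2, Cdc25c, Foxm1, Aurkb, Incenp, Tpx2 and Kif20a were not used here. The sequences below run 5' to 3' on the gene's strand from 150 bases before to 30 bases after the start, with motifs in capitals. Capitals mark CCAAT on either strand, where a copy on the opposite strand reads ATTGG. They also mark the hexamer TTTGAA and, likewise on both strands, the hexamer TTTAAA. They are shown for genes on which the comparisons below turn: Ccnb1 (chr13:100786457-100786636, minus strand), Ccnb2 (chr9:70421525-70421704, minus strand), Cdc20 (chr4:118437314-118437493, minus strand), Nek2 (chr1:191821323-191821502, plus strand) and Bub1 (chr2:127831830-127832009, minus strand), which had lower signal on both LT-HSC arrays than on both MPP arrays. Hmmr (chr11:40733408-40733587, minus strand) and Pttg1 (chr11:43425952-43426131, minus strand) are the 2 members with higher signal on both LT-HSC arrays than on both MPP arrays.
Ccnb1: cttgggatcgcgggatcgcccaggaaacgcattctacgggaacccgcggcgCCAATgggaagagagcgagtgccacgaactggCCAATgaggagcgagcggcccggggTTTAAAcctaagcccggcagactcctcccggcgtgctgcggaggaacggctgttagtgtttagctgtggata
Ccnb2: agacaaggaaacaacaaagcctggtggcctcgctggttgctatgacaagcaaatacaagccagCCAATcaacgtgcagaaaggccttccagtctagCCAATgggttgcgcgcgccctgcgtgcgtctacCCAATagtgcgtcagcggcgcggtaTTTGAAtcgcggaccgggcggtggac
Cdc20: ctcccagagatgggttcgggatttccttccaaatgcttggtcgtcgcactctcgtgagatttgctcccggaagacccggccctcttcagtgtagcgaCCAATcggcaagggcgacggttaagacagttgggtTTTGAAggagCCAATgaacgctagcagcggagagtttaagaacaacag
Nek2: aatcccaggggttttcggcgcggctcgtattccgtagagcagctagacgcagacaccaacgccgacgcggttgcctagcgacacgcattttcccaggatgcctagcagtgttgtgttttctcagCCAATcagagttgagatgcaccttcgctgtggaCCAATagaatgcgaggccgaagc
Bub1: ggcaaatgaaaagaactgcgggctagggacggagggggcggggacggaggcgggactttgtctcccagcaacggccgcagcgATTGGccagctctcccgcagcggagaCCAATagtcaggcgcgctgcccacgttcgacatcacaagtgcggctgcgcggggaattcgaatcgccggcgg
Hmmr: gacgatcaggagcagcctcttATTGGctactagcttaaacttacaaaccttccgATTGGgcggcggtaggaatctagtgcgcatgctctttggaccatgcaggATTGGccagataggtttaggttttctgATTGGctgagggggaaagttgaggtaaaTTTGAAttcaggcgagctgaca
Pttg1: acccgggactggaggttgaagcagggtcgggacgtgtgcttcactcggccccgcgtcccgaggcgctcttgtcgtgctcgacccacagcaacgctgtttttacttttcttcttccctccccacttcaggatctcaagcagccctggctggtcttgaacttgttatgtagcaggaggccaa

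CCAAT occurred in the 300-base window of 27 of the 36 genes (75%), against 42.3% of 17492 protein-coding genes with such a window. At least 2 copies were present in 20 of the 36 genes (55.6%), against 14.6% of the protein-coding genes. TTTGAA was present in 25 of the 36 genes (69.4%, against 18.5%) and TTTAAA in 10 (27.8%, against 13.8%), searched on both strands. A window with CCAAT together with either of the other 2 motifs was found for 24 of the 36 genes (66.7%), against 11.5% of the protein-coding genes and 20.7% of 29 genes of G1/S and DNA replication. In the sequences above, neighbouring CCAAT copies began 32 bases apart in Ccnb1, 33 and 33 bases apart in Ccnb2, 45 bases apart in Cdc20, 33 bases apart in Nek2 and 26 bases apart in Bub1. Hmmr carried 4 copies and a TTTGAA, and the printed stretch of Pttg1 carried 0 of the 3 motifs. Median GC content of the windows was 58.8% for the 36 genes and 56.3% for the protein-coding genes, and a match is a run of letters, not a measured binding site.

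Signals are given on the linear scale after each array was scaled to a common 75th percentile ("scaled signal"), and differences are log2 differences of these values. A probe's brightness also depends on its sequence, so levels were compared between arrays and not between genes. With 1 array per group, no difference between 2 arrays had a replicate check. Differences are therefore described by size, with ± giving the error that the scanner software itself estimates for a difference, which leaves out cells, sorts and RNA amplification, and 2-fold (1 on the log2 scale) was used for counts. The number of arrays limits the precision.

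Mapk14, which encodes p38 alpha, had 2 probes. The brighter had scaled signals of 865 for cKO LT-HSC, 1297 for WT LT-HSC, 1121 for cKO MPP and 1021 for WT MPP, and the other had 465, 425, 651 and 667 on the same arrays in that order. Which exons were deleted was not given, so these probes do not check the genotype labels. The sort markers ran with the population labels: Cd34 had scaled signals of 3416 for cKO LT-HSC, 1048 for WT LT-HSC, 6935 for cKO MPP and 8302 for WT MPP, and Flt3 had 180, 158, 400 and 553 on the arrays in the same order. The 12 stem cell markers were split: in LT-HSC against MPP 7 of 11 were higher and 4 lower in cKO (median 0.22), and 7 of 12 were higher and 5 lower in WT (median 0.09). Ly6a (Sca-1) had scaled signals of 4067 for cKO LT-HSC, 3933 for WT LT-HSC, 942 for cKO MPP and 1008 for WT MPP. The LT-HSC minus MPP difference was -1.75 in cKO and 0.13 in WT for Mecom, and 0.26 in cKO and -1.18 in WT for Procr. Slamf1 was not well above background on either MPP array, and Hoxb5 was well above background on the WT LT-HSC array alone. Markers of other blood cells differed between the arrays too. All 10 B cell markers were well above background on both LT-HSC arrays, against 6 on cKO MPP and 7 on WT MPP (Ebf1, Igll1 and Ms4a1 were not so on either MPP array), with summed signals of 4750 for cKO LT-HSC, 12596 for WT LT-HSC, 373 for cKO MPP and 490 for WT MPP. Here and below, a summed signal is set mostly by the brightest probes of its list, so it weighs the genes unequally.

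Most transcripts of the division machinery were lower in LT-HSC than in MPP in both genotypes. The signal was lower on both LT-HSC arrays than on both MPP arrays for 36 of the 42 genes well above background on all 4 arrays. The same order held for 37.3% of all 21465 such genes, and the reverse order for 19.8% of them. It held for each of the 5 spindle checkpoint genes, the 4 genes of the chromosomal passenger complex, and both Top2a and Mki67. The 6 exceptions were Cdc25b, Cdc25c, Pttg1, Ndc80, Hmmr and Anln. The WT MPP array gave the highest signal of the 4 for 28 of these genes and the cKO MPP array for 9, while the lowest signal lay on the WT LT-HSC array for 26 genes, on the cKO LT-HSC array for 14 and on the WT MPP array for Hmmr and Pttg1.

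**Figure D1:**
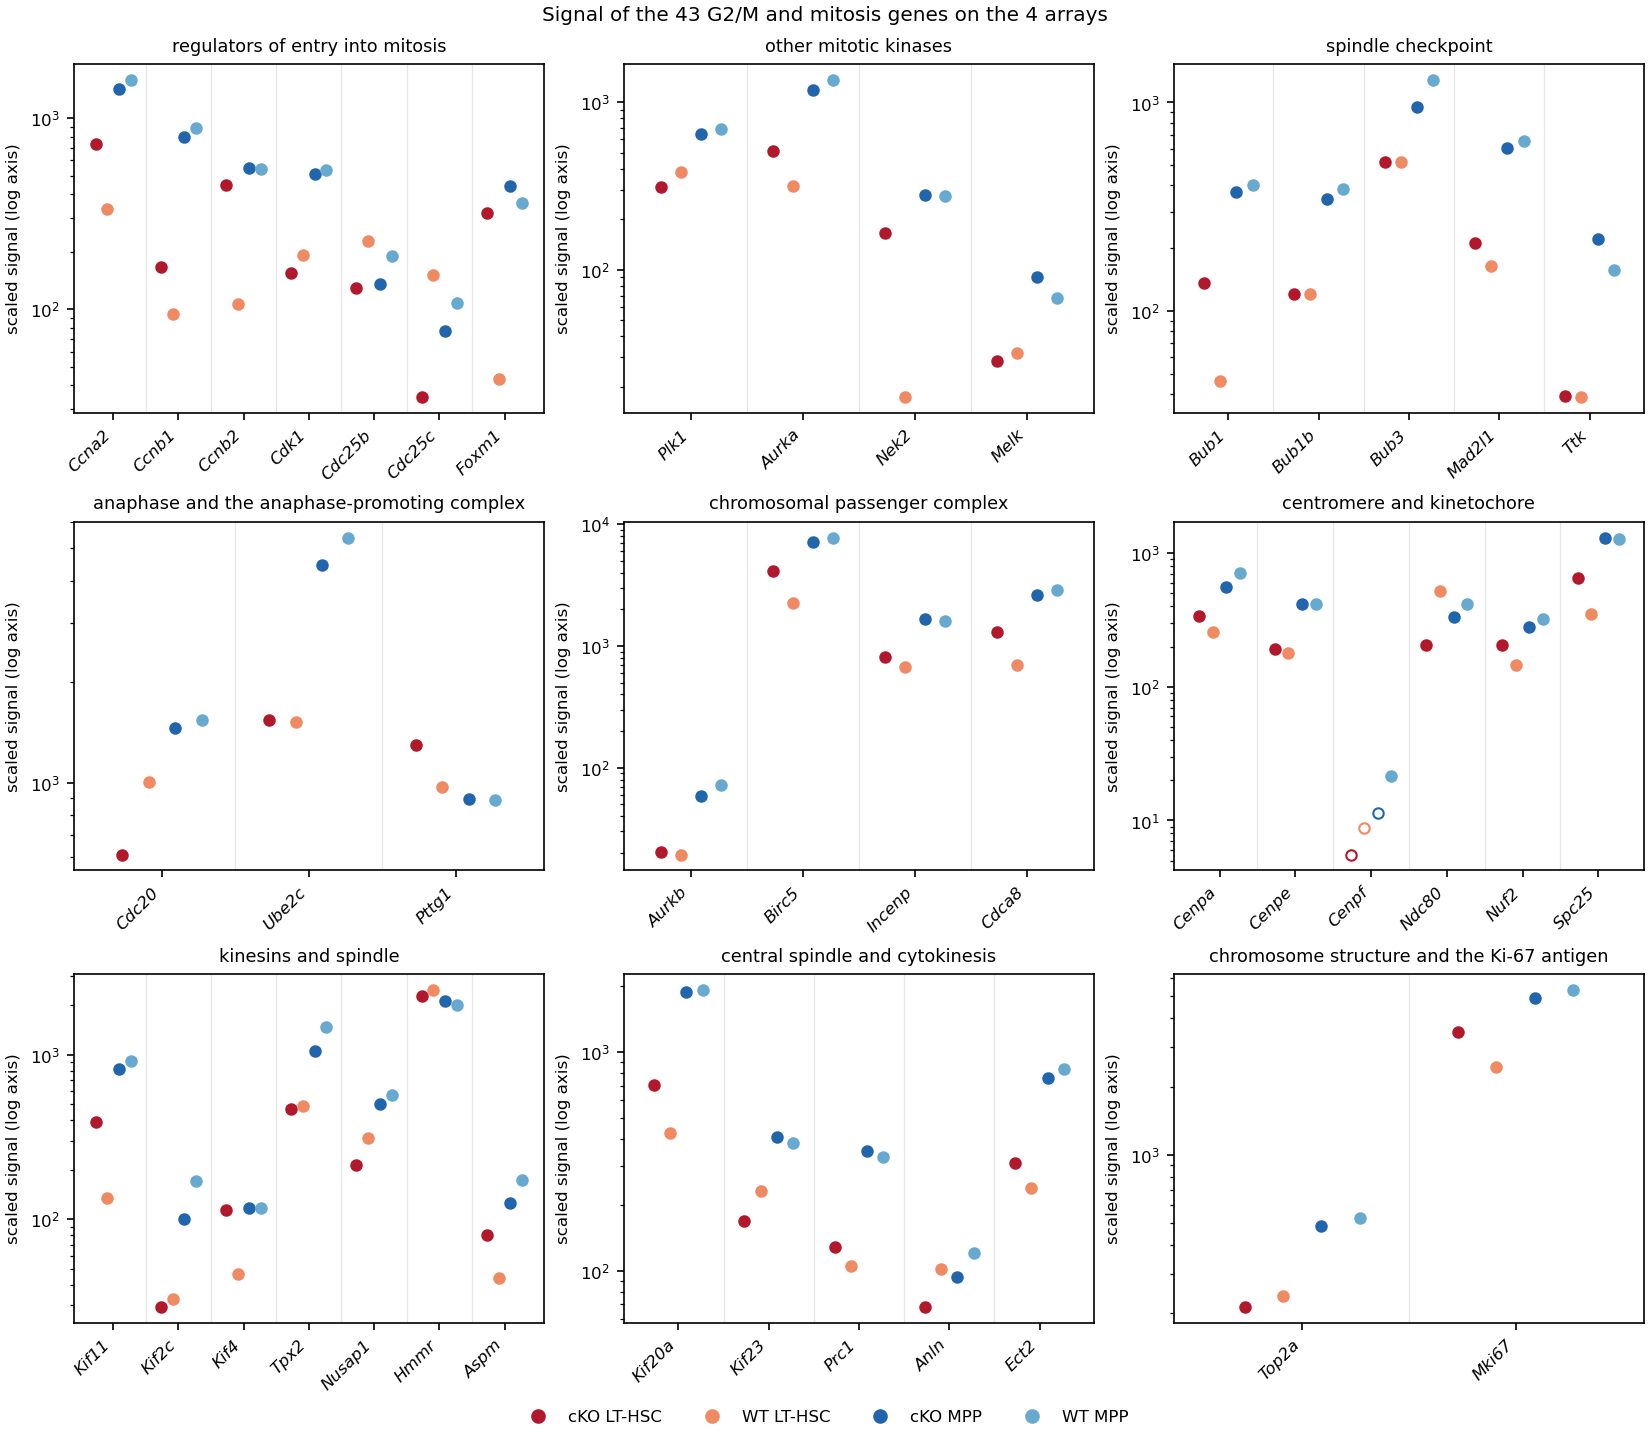
Scaled signal (log axis) of each of the 43 genes on the 4 arrays, 1 point per array, in panels by role; open circles were not well above background, and points may be compared within a gene only. For 36 of the 42 genes well above background throughout, both LT-HSC points (red and orange) lie below both MPP points (dark and light blue).

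In cKO mice, 26 of 42 genes (61.9%) were at least 2-fold lower in LT-HSC than in MPP and 0 were 2-fold higher, with a median difference of -1.10. Among all 27025 genes compared in cKO mice, 6.84% were 2-fold lower and 8.07% were 2-fold higher, with a median of -0.04. The members were thus lower as a group on the cKO LT-HSC array, while genes at large were not. In WT mice, 32 of 43 genes (74.4%) were at least 2-fold lower in LT-HSC than in MPP and 0 were 2-fold higher, with a median difference of -1.60. Among all 26652 genes compared in WT mice, 18.3% were 2-fold lower and 10.5% were 2-fold higher, with a median of -0.10. The shift of the members was larger than that of genes at large in WT too. The WT comparison had its largest difference at Nek2, at -4.00 ± 0.29, and the cKO comparison at Ttk, at -2.50 ± 0.24. These are bulk samples, so fewer cells in G2 or M and less of each mRNA per cell cannot be told apart.

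**Figure D2:**
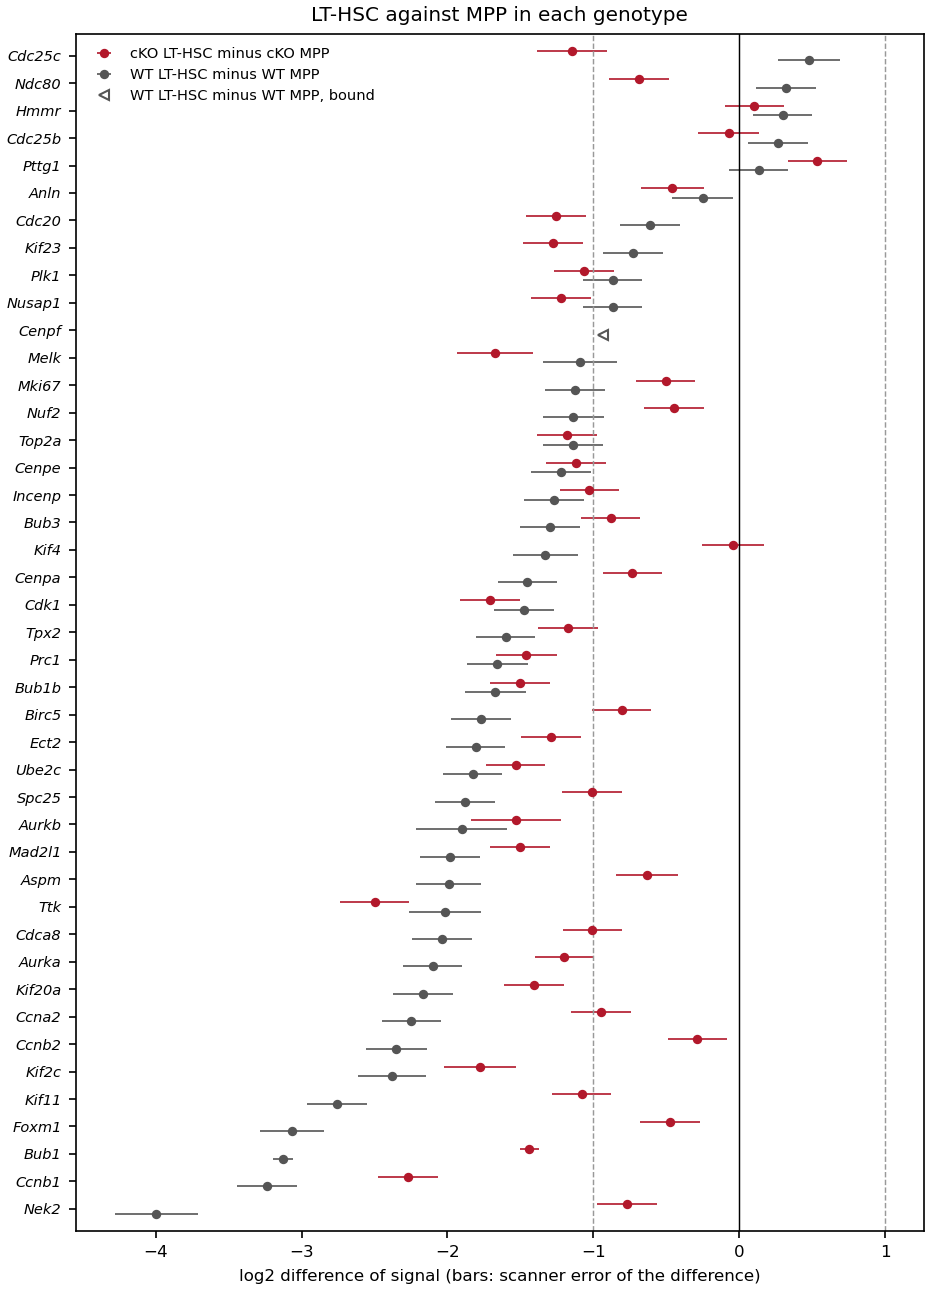
Log2 difference of LT-HSC from MPP for each gene, within cKO (red) and within WT (grey), with bars for the scanner error and dashed lines at 2-fold; the triangle is a bound. Most points lie left of -1 in both genotypes, from -4.00 at Nek2 in WT to 0.53 at Pttg1 in cKO.

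The B cell and T cell markers ran opposite to the mitotic genes between the populations. In cKO mice 9 of 10 B cell markers were 2-fold higher in LT-HSC than in MPP (median 2.87), and in WT mice all 10 were (median 4.38). T and NK cell markers were 2-fold higher in LT-HSC for 6 of 10 genes in cKO mice (median 1.80) and 7 of 10 in WT mice (median 2.30). Their summed signals were 9494 for cKO LT-HSC, 9985 for WT LT-HSC, 7207 for cKO MPP and 7193 for WT MPP, with Cd3g, Cd2, Cd8a and Klrb1c not well above background on either MPP array. Nkg7 alone gave 5535 of the cKO MPP sum and 5734 of the WT MPP sum. It was lower in LT-HSC than in MPP, at -0.25 in cKO and -0.63 in WT. Most lymphoid markers were thus higher on the arrays on which the mitotic genes were lower. Summed signals of the erythroid markers were 11226 for cKO LT-HSC, 17818 for WT LT-HSC, 8830 for cKO MPP and 7807 for WT MPP. Granulocyte markers, 10 of 10 well above background on every array, had summed signals of 52203 for cKO LT-HSC, 43563 for WT LT-HSC, 50481 for cKO MPP and 44759 for WT MPP. The granulocyte list was split, with 4 of 10 genes 2-fold higher in LT-HSC and 3 lower in cKO, and 5 higher and 3 lower in WT. Macrophage markers ran the same way as the mitotic genes. They were 2-fold lower in LT-HSC for 7 of 10 genes in cKO (median -2.37) and 5 of 10 in WT (median -1.03). Stromal and endothelial markers were 2-fold higher in LT-HSC for 1 of 9 genes in cKO and 5 of 9 in WT, with 1 lower in each. The part of all these cells in the lower mitotic signal was not tested.

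Among the regulators of entry into mitosis, Ccnb1 and Ccna2 were low on both LT-HSC arrays, and Ccnb2 on the WT LT-HSC array. Ccnb1 encodes cyclin B1, the main partner of the mitotic kinase, and its brightest probe lies at mm9 chr13:101551224-101551283 on the minus strand. It had scaled signals of 165 in cKO LT-HSC, 94.3 in WT LT-HSC, 797 in cKO MPP and 889 in WT MPP. Both LT-HSC arrays were low, and the LT-HSC minus MPP difference was -2.27 ± 0.21 in cKO and -3.24 ± 0.21 in WT, or 9.43-fold lower in WT. The other 2 Ccnb1 probes gave smaller differences in the same direction, -1.67 and -0.90 in cKO and -1.49 and -1.94 in WT.

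Ccna2, which encodes cyclin A2 of S and G2 phase, had scaled signals of 732 in cKO LT-HSC, 333 in WT LT-HSC, 1413 in cKO MPP and 1580 in WT MPP. Cdk1, the catalytic subunit itself, had 155 in cKO LT-HSC, 192 in WT LT-HSC, 507 in cKO MPP and 533 in WT MPP. For both genes the LT-HSC arrays lay below the MPP arrays, with differences at Cdk1 of -1.71 in cKO and -1.48 in WT. The Cdk1 probes did not all show this: another gave -0.71 in cKO and 0.08 in WT, and the last gave -2.04 in cKO and -1.84 in WT.

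Ccnb2, which encodes cyclin B2, had scaled signals of 448 in cKO LT-HSC, 106 in WT LT-HSC, 546 in cKO MPP and 540 in WT MPP. Foxm1, the forkhead factor that drives G2/M transcription, had 317 in cKO LT-HSC, 43.1 in WT LT-HSC, 441 in cKO MPP and 360 in WT MPP. In both genes the WT LT-HSC array alone was low, while the cKO LT-HSC array lay near the MPP arrays. The LT-HSC minus MPP difference was -0.29 ± 0.20 in cKO and -2.35 ± 0.21 in WT for Ccnb2, and -0.47 ± 0.20 in cKO and -3.06 ± 0.22 in WT for Foxm1.

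Cdc25b and Cdc25c, phosphatases that remove the inhibitory phosphates from cyclin-dependent kinases, did not follow the order of the cyclins. Cdc25a, a phosphatase listed with the G1/S genes, did, at -0.64 in cKO and -1.26 in WT for LT-HSC against MPP. Cdc25c had scaled signals of 34.7 in cKO LT-HSC, 151 in WT LT-HSC, 76.8 in cKO MPP and 108 in WT MPP. Cdc25b had 129 in cKO LT-HSC, 229 in WT LT-HSC, 136 in cKO MPP and 190 in WT MPP. The 2 genes were highest on the WT LT-HSC array and lowest on the cKO LT-HSC array, so the populations overlapped and the genotypes did not. Both cKO arrays lay below both WT arrays for 4 of the 42 members, near the share of 11.3% among all genes well above background on all 4 arrays.

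The other mitotic kinases were lower on both LT-HSC arrays. Aurka encodes Aurora A, which acts at the centrosomes and in spindle assembly, and had scaled signals of 513 in cKO LT-HSC, 316 in WT LT-HSC, 1176 in cKO MPP and 1356 in WT MPP. Plk1, the Polo-like kinase of mitotic entry and spindle assembly, had 311 in cKO LT-HSC, 381 in WT LT-HSC, 650 in cKO MPP and 695 in WT MPP. Melk, a kinase with high mRNA in dividing cells, had 28.4 in cKO LT-HSC, 31.9 in WT LT-HSC, 90.5 in cKO MPP and 68.0 in WT MPP. Differences for these 3 genes ran from -1.67 (Melk) to -1.06 (Plk1) in cKO and from -2.10 (Aurka) to -0.87 (Plk1) in WT.

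Nek2 encodes a kinase that helps to separate the centrosomes before mitosis, and its probe lies at mm9 chr1:193656343-193656402 on the plus strand. It had scaled signals of 165 in cKO LT-HSC, 17.3 in WT LT-HSC, 281 in cKO MPP and 276 in WT MPP. Here too the WT LT-HSC array alone was far below the other 3, though still well above background. The LT-HSC minus MPP difference was -0.77 ± 0.21 in cKO and -4.00 ± 0.29 in WT.

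The 5 spindle checkpoint genes were all at least 2-fold lower in LT-HSC than in MPP in WT, and 4 of the 5 in cKO, where Bub3 was at -0.88. Bub1, a checkpoint kinase at the kinetochore, was printed as 10 spots and so had the smallest scanner error of the set. Its scaled signals were 137 in cKO LT-HSC, 45.9 in WT LT-HSC, 371 in cKO MPP and 401 in WT MPP, with differences of -1.44 ± 0.07 in cKO and -3.12 ± 0.07 in WT. Ttk, which encodes the checkpoint kinase MPS1, had 39.0 in cKO LT-HSC, 38.6 in WT LT-HSC, 220 in cKO MPP and 157 in WT MPP. Its differences of -2.50 in cKO and -2.02 in WT made it one of 13 genes whose LT-HSC minus MPP difference was lower in cKO than in WT. Mad2l1, which encodes the checkpoint protein MAD2, had 213 in cKO LT-HSC, 165 in WT LT-HSC, 602 in cKO MPP and 652 in WT MPP, and Bub1b, a partner of Bub1 in the checkpoint, was 2.83-fold lower in LT-HSC in cKO and 3.18-fold lower in WT.

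Of the 3 genes of anaphase, Ube2c and Cdc20 were lower in LT-HSC and Pttg1 was not. Ube2c, the ubiquitin-conjugating enzyme of the anaphase-promoting complex, had scaled signals of 1542 in cKO LT-HSC, 1516 in WT LT-HSC, 4461 in cKO MPP and 5383 in WT MPP. Cdc20, the activator of that complex, had 612 in cKO LT-HSC, 1008 in WT LT-HSC, 1460 in cKO MPP and 1541 in WT MPP. Both LT-HSC arrays lay below both MPP arrays for Ube2c and Cdc20. Pttg1, which encodes securin, the inhibitor of separase, had 1296 in cKO LT-HSC, 972 in WT LT-HSC, 895 in cKO MPP and 887 in WT MPP, the reverse order. Its other probe was well above background on the WT LT-HSC array alone.

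All 4 genes of the chromosomal passenger complex, which corrects faulty attachments and prepares cytokinesis, were 2-fold lower in LT-HSC in WT, and 3 of the 4 in cKO. Birc5, which encodes survivin, had scaled signals of 4115 in cKO LT-HSC, 2279 in WT LT-HSC, 7193 in cKO MPP and 7778 in WT MPP. Aurkb, which encodes the kinase Aurora B, had 20.2 in cKO LT-HSC, 19.3 in WT LT-HSC, 58.2 in cKO MPP and 72.2 in WT MPP. The populations did not overlap for either gene, with Birc5 the member of the complex above -1 in cKO, at -0.81. Cdca8 (borealin) had differences of -1.01 in cKO and -2.04 in WT, and Incenp, the scaffold, -1.03 in cKO and -1.27 in WT.

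At the centromere and kinetochore the genes were less uniform. Cenpa, the histone H3 variant of centromeres, had scaled signals of 336 in cKO LT-HSC, 258 in WT LT-HSC, 559 in cKO MPP and 705 in WT MPP. Cenpe, a kinesin at the kinetochore, had 191 in cKO LT-HSC, 178 in WT LT-HSC, 415 in cKO MPP and 416 in WT MPP. Both were lower on both LT-HSC arrays, as were Spc25 and, at its brightest probe, Nuf2. A second Nuf2 probe gave 0.40 for LT-HSC minus MPP in cKO. Spc25 and Nuf2 are 2 subunits of the NDC80 complex, which binds microtubules. Ndc80, which gives that complex its name, had 207 in cKO LT-HSC, 520 in WT LT-HSC, 332 in cKO MPP and 416 in WT MPP, with its highest signal on the array on which Spc25 and Nuf2 were lowest. Cenpf, read at 21.4 on WT MPP, was at least 1.91-fold lower in WT LT-HSC than in WT MPP, and it was not well above background on either cKO array.

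Of the kinesin and spindle genes, Kif11 encodes the motor that pushes the spindle poles apart. It had scaled signals of 388 in cKO LT-HSC, 135 in WT LT-HSC, 820 in cKO MPP and 912 in WT MPP. Tpx2, which activates Aurora A on the spindle, had 465 in cKO LT-HSC, 488 in WT LT-HSC, 1051 in cKO MPP and 1482 in WT MPP. For both the populations were apart, and the 2 LT-HSC arrays differed for Kif11 but lay within scanner error for Tpx2. Kif2c, a kinesin that takes microtubules apart, had 29.2 in cKO LT-HSC, 33.0 in WT LT-HSC, 100 in cKO MPP and 172 in WT MPP. Kif4, a chromosome-bound kinesin, had 113 in cKO LT-HSC, 46.7 in WT LT-HSC, 117 in cKO MPP and 118 in WT MPP, so that 3 arrays lay together and WT LT-HSC apart. Hmmr, a spindle-associated protein also known as a hyaluronan receptor, had 2285 in cKO LT-HSC, 2466 in WT LT-HSC, 2127 in cKO MPP and 2007 in WT MPP, a range of 0.30 on the log2 scale over the 4 arrays.

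In cytokinesis, Kif20a, Kif23, Prc1 and Ect2, which act at the central spindle, were lower on both LT-HSC arrays, with differences of -1.46 to -1.27 in cKO and -2.17 to -0.73 in WT. Anln, which encodes the contractile ring protein anillin, had scaled signals of 68.0 in cKO LT-HSC, 101 in WT LT-HSC, 93.5 in cKO MPP and 121 in WT MPP, and its populations overlapped. Top2a, the topoisomerase that untangles sister chromatids, had 213 in cKO LT-HSC, 238 in WT LT-HSC, 484 in cKO MPP and 525 in WT MPP. Mki67, which encodes the proliferation antigen Ki-67, had 3469 in cKO LT-HSC, 2440 in WT LT-HSC, 4921 in cKO MPP and 5320 in WT MPP. Top2a was 2.27-fold lower in LT-HSC than in MPP in cKO and 2.20-fold lower in WT, while Mki67 was 1.42-fold lower in cKO and 2.18-fold lower in WT.

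The cKO against WT comparison asks whether loss of p38 alpha moved these genes in each population. In LT-HSC, a minority of the genes differed, most of them higher in cKO. Of 42 genes compared, 7 (16.7%) were at least 2-fold higher in cKO LT-HSC and 2 (4.76%) at least 2-fold lower, against 10.8% higher and 8.43% lower among all 27596 genes. The median difference was 0.28 for the members and 0.12 for all genes. These shares lie close to the background, so the count by itself does not set the mitotic genes apart from other genes in the LT-HSC pair.

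The 7 genes were Nek2 (3.25 ± 0.29), Foxm1 (2.88 ± 0.22), Ccnb2 (2.08 ± 0.21), Bub1 (1.58 ± 0.07), Kif11 (1.52 ± 0.21), Kif4 (1.28 ± 0.22) and Ccna2 (1.14 ± 0.20), where a positive value means higher in cKO LT-HSC. Foxm1 was 7.37-fold higher and Nek2 9.52-fold higher in cKO. A second Foxm1 probe, not well above background on the WT LT-HSC array, gave at least 2.98 on the log2 scale. The 2 genes that were lower in cKO LT-HSC were Cdc25c (-2.12 ± 0.23, or 4.35-fold) and Ndc80 (-1.33 ± 0.21). For the 7 genes higher in cKO, the WT LT-HSC array had the lowest signal of the 4. For Cdc25c and Ndc80 the cKO LT-HSC array had the lowest signal and the WT LT-HSC array the highest.

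The WT LT-HSC array enters both the cKO minus WT difference in LT-HSC and, with the opposite sign, the LT-HSC minus MPP difference in WT. A single low or high reading on it therefore moves both, and the 2 sets of values are not independent of each other. That array also had the highest summed signal of B cell markers (4750 in cKO LT-HSC, 12596 in WT LT-HSC) and of stromal and endothelial markers (2006 in cKO LT-HSC, 7628 in WT LT-HSC). Cxcl12 alone gave 190 of the stromal and endothelial sum in cKO LT-HSC and 4588 of that in WT LT-HSC. In the cKO minus WT comparison in LT-HSC, 9 of 10 B cell markers were 2-fold lower (median -1.27), 5 of 9 stromal and endothelial markers were 2-fold lower (median -2.82), and Cd34 was higher at 1.70. The part of these cells in the LT-HSC difference was not tested.

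In MPP, the mitotic genes, like genes at large, differed little between the genotypes. Of 43 genes compared, 0 were 2-fold higher and 0 were 2-fold lower in cKO MPP. Among all 25319 genes, 2.48% were higher and 2.69% lower. The counts lie close to this background, so they do not set the mitotic genes apart from other genes in the MPP pair. The median was -0.12 for the members and -0.05 for all genes, and 32 of the 43 genes (74.4%, against 54.4% of all genes) lay below 0. Cenpf entered with a bound, at least 1.53-fold lower in cKO MPP. The largest differences were Kif2c at -0.78 ± 0.21, or 1.71-fold lower in cKO MPP, and Ttk at 0.49 ± 0.21, or 1.41-fold higher. A second Kif2c probe gave 0.12. Behind these were Tpx2 and Cdc25c at -0.50 each, Cdc25b and Aspm at -0.48 each, Bub3 at -0.43 and Melk at 0.41, while the mitotic cyclins lay between -0.16 (Ccna2 and Ccnb1) and 0.02 (Ccnb2). Macrophage markers differed between the same 2 arrays, with 9 of 10 at least 2-fold higher in cKO MPP (median 1.44), summed signals of 11386 in cKO MPP and 6478 in WT MPP, and Cd163 not well above background in WT MPP. Their part in the MPP result was not tested.

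**Figure D3:**
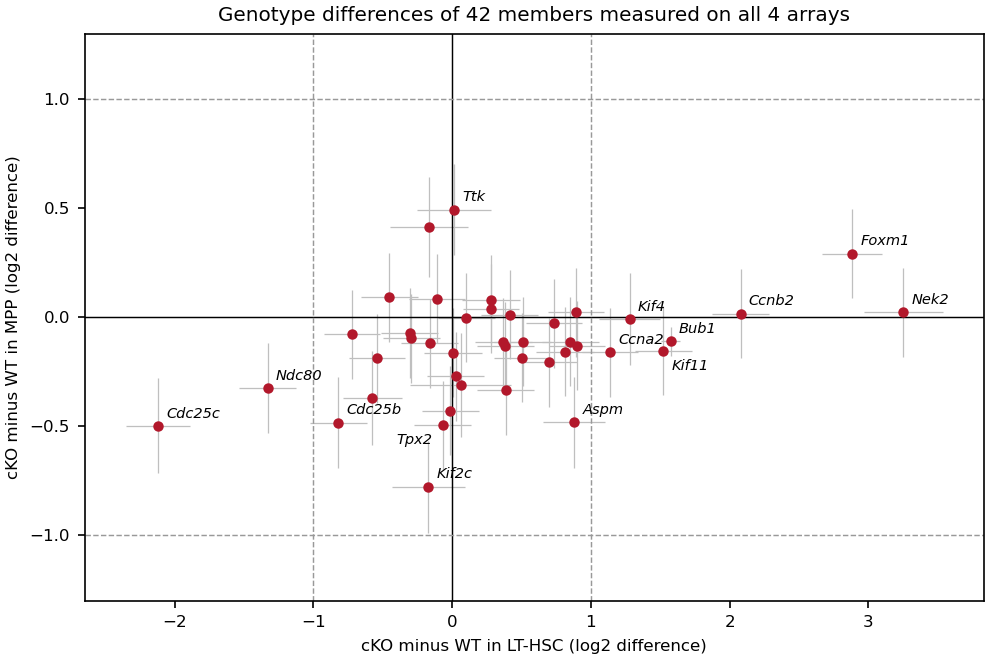
Log2 difference of cKO from WT in LT-HSC (horizontal axis) and in MPP (vertical axis) for the 42 genes measured on all 4 arrays, with bars for the scanner error and dashed lines at 2-fold. The LT-HSC differences spread from -2.12 (Cdc25c) to 3.25 (Nek2), and the MPP differences from -0.78 (Kif2c) to 0.49 (Ttk).

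The 2 genotype differences were set against each other gene by gene, without a test. The cKO minus WT difference in LT-HSC exceeded that in MPP for 29 of 42 genes (69.0%, against 57.7% of all genes) and was below it for 13, with a median gap of 0.42 against 0.12 over 21465 genes measured on all 4 arrays. The gap was 2-fold or more above for 9 genes (21.4%, against 12.2% of all genes): the 7 named above, Cdca8 and Aspm. It was 2-fold or more below for Cdc25c and Ndc80 (4.76%, against 8.22%). Across the 42 genes the cKO minus WT differences in LT-HSC and in MPP, which share no array, had a Pearson correlation of 0.35 and a Spearman correlation of 0.29, against 0.02 and 0.02 over all 21465 genes. The LT-HSC minus MPP differences in cKO and in WT, which share no array either, had a Pearson correlation of 0.41 and a Spearman correlation of 0.31, against 0.57 and 0.49 over all genes. Genes are not independent replicates, and all genes of a difference share its 2 arrays and their scaling.

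Both cKO arrays lay below both WT arrays for Cdc25b, Cdc25c, Ndc80 and Anln, 4 of the 42 genes well above background on all arrays, against 11.3% of all such genes. Both cKO arrays lay above both WT arrays for 0 of the 42 genes, against 13.2% of all such genes. Cdc25b was lower in cKO by 0.82 in LT-HSC and by 0.48 in MPP on the log2 scale (differences of -0.82 ± 0.21 and -0.48 ± 0.21), and Anln had differences of -0.58 ± 0.21 and -0.37 ± 0.21.

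Differences shared by both genotypes, or by both populations, were tested with limma in an additive model (genotype plus population) over 25840 genes, which leaves 1 residual degree of freedom. For LT-HSC against MPP, 0 of the 42 genes and 0 of all genes passed an adjusted p of 0.05, and the smallest adjusted p (limma, Benjamini-Hochberg) of the members was 0.19, at Ttk. At an unadjusted p under 0.05, 28 of the 42 genes were lower in LT-HSC and 0 were higher, against 8.97% of all genes lower and 6.70% higher. For cKO against WT, 0 genes passed the adjusted threshold, 0 of the 42 members had an unadjusted p under 0.05, against 2.00% of all genes higher and 1.58% lower, and the smallest adjusted p of the members was 0.97, at Cdc25c. With 1 residual degree of freedom, and with any unlike response of the genotypes counted as error, the adjusted count of 0 does not bear on the size of these differences.

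Other genes of the pathway, 111 listed of which all but 4 were found on the array, had medians in the same direction in each comparison but nearer to 0. In LT-HSC against MPP, 26 of 106 were 2-fold lower and 1 higher in cKO (median -0.75). In WT, 49 of 106 were 2-fold lower and 4 higher (median -0.95). Among all genes, 6.84% were lower and 8.07% higher in cKO, and 18.3% lower and 10.5% higher in WT. Between genotypes, 21 of 105 were 2-fold higher and 12 lower in cKO LT-HSC (median 0.21), against 10.8% and 8.43% of all genes. In cKO MPP, 2 of 106 were higher and 0 lower (median -0.07), against 2.48% and 2.69% of all genes. Of the other kinesin, spindle and cytokinesis genes, 13 of 24 were 2-fold lower in LT-HSC than in MPP in cKO and 12 of 24 in WT. Of the other centromere and kinetochore genes, 6 of 29 were so in cKO and 18 of 29 in WT. For the other anaphase-promoting complex genes it was 1 of 15 in cKO and 6 of 15 in WT. Condensin and cohesin genes had 2 of 17 in cKO and 8 of 17 in WT. Other regulators of G2 and of G2/M transcription had 4 of 21 in cKO and 5 of 21 in WT (WT median -0.13). The cKO minus WT median of these regulators in LT-HSC was -0.06, with 3 genes 2-fold higher and 4 lower.

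Cenpn, a centromere protein that binds CENP-A nucleosomes, had scaled signals of 173 in cKO LT-HSC, 21.9 in WT LT-HSC, 306 in cKO MPP and 250 in WT MPP. Ska1, a kinetochore protein that follows microtubule ends, had 240 in cKO LT-HSC, 44.4 in WT LT-HSC, 381 in cKO MPP and 417 in WT MPP. Both had the pattern of Nek2 and Foxm1, low on the WT LT-HSC array alone. Mybl2, which encodes B-MYB, had 477 in cKO LT-HSC, 216 in WT LT-HSC, 908 in cKO MPP and 1065 in WT MPP, close in order to Ccna2. Separase (Espl1) had differences of -1.18 in cKO and -2.02 in WT, and Esco2, a cohesin acetyltransferase, -1.36 in cKO and -2.52 in WT. Gadd45g, a stress-induced gene known to restrain cyclin-dependent kinase 1, went the other way, with differences of 1.24 in cKO and 1.37 in WT. Between genotypes, Kif18a was higher in cKO MPP at 1.39 and lower in cKO LT-HSC. On the cKO LT-HSC array it was not well above background, with a bound of -1.96 against WT LT-HSC. Ccng2 was the other gene 2-fold higher in cKO MPP, at 1.09. Kif18a was 1 of the 12 genes 2-fold lower in cKO LT-HSC, against 21 that were higher. Others of the 12 were Cenpt (-1.85), Kif15 (-1.77), Mis12 (-1.72), Ncaph2 (-1.61) and Ccnf (-1.55), each well above background on both arrays.

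**Figure D4:**
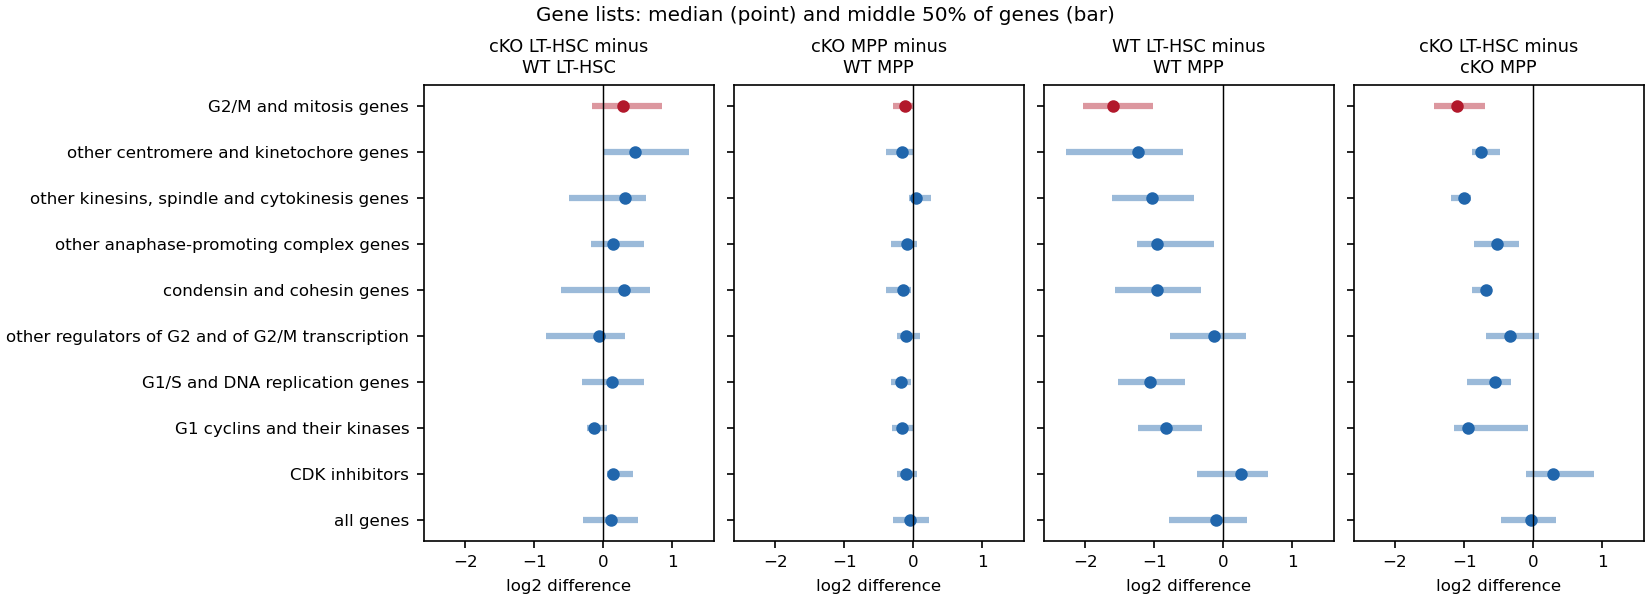
Median log2 difference (point) and interquartile range (bar) of each gene list in the 4 comparisons, with the G2/M and mitosis genes in red and all genes at the bottom. The G2/M and mitosis genes have medians of -1.10 in cKO and -1.60 in WT for LT-HSC against MPP, and of 0.28 in LT-HSC and -0.12 in MPP for cKO against WT.

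Lists from earlier in the cycle gave a reference for size. Genes of G1/S and DNA replication were 2-fold lower in LT-HSC than in MPP for 8 of 34 in cKO (median -0.55) and 18 of 34 in WT (median -1.06), and between genotypes had medians of 0.12 in LT-HSC and -0.18 in MPP. G1 cyclins and their kinases had medians of -0.95 in cKO and -0.83 in WT over 6 genes, with Cdk4 at -1.21 in cKO and -1.29 in WT. The inhibitors of cyclin-dependent kinases had medians of 0.29 in cKO and 0.25 in WT. Cdkn1b, which encodes p27, was the inhibitor 2-fold higher in LT-HSC, at 1.08 in cKO.

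Of the 43 genes, 15 had more than 1 probe. Further probes were counted where they were well above background on at least 1 of the 2 arrays, so some enter as bounds. For LT-HSC against MPP, 15 of 16 had the direction of the brightest probe in cKO, and 15 of 16 in WT. For cKO against WT it was 15 of 17 in LT-HSC and 11 of 16 in MPP. The 2 opposing probes in LT-HSC were of Ccnb1, at -0.24 against 0.81, and of Pttg1, with a bound of -2.65 against 0.41. The opposing probe of LT-HSC against MPP was of Nuf2 in cKO, at 0.40 against -0.45. In WT it was of Cdk1, at 0.08 against -1.48. The 5 opposing probes in MPP were of Ect2, Nuf2, Cdk1, Kif2c and Incenp. The Ect2 one gave 1.45 ± 0.32, against -0.13 at the brightest probe, and the Nuf2 one a bound of 0.96, against -0.18. The other 3 ran from -0.05 (Incenp) to 0.40 (Cdk1).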

How the data were processed

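The deposited scanner tables gave linear intensities per spot; per the file headers they came from Agilent Feature Extraction 10.7.3.1, while the submitters' processing notes give version 9.5.3. The processed signal had been background-corrected within each array, per the file headers, which also give probe coordinates on mm9. Flags (well above background, saturated, outlier) are a score of 0 or 1 for each spot, per the file headers. The authors' series table held ratios of each probe to its own level over the arrays. Its differences between arrays matched the scanner values within 0.05 (log2) for 99.987% to 99.991% of 55681 probes, with column medians of 97.5 (cKO LT-HSC), 91.9 (WT LT-HSC), 102.5 (cKO MPP) and 107.3 (WT MPP), so its direction is known and its scaling rule is not.

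From the deposited intensities, control spots and 137 to 151 outlier spots per array were left out, log2 of the processed signal was taken, and arrays were scaled to their 75th percentile, computed from every non-control probe. Between 62.5% and 70.5% of an array's spots were well above background, and 0 were saturated. All 4 arrays came from 1 slide and 1 scan. The median SD between repeat spots was 0.09 to 0.10 on the log2 scale. Where just 1 of 2 compared arrays measured a gene, its difference is a bound, set against the dim array's own value or that array's detection floor (the lowest signal flagged well above background), whichever was higher. The additive fit used limma 3.58.1 (R 4.3.3) over genes that 2 or more arrays had measured above background and was tested on simulated data, where it called no planted gene at the adjusted threshold at any size tried.

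The members and the gene lists were chosen with earlier results of these data known. Named genes were 20 members chosen by function, the 5 members with the largest difference in each direction of each comparison, and up to 2 genes in each direction from each other list. Some of these are counted and not named. Alternatives tried were other scalings, normexp background correction, filters on dim probes, other probes, the authors' table and a 1.5-fold threshold. Ska2, Ska3, Mis18a, Bora and Adgre1 were not analysed here.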

Additional observations from a re-analysis of the deposited data

Results flagged for a closer look

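The median cKO minus WT difference of the G2/M and mitosis genes was 0.28 in LT-HSC and -0.12 in MPP, with opposite signs in the 2 populations, and the difference between them was not tested. Aspm, which encodes a spindle pole protein, had scaled signals of 80.7 in cKO LT-HSC, 43.9 in WT LT-HSC, 125 in cKO MPP and 174 in WT MPP. Its cKO minus WT difference was 0.88 ± 0.22 in LT-HSC and -0.48 ± 0.21 in MPP, opposite in sign and each beyond the scanner error, and this difference was not tested either.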

How the results depend on the processing

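Of the values that answer a comparison, 122 stayed close under the alternatives and 14 moved. Several alternatives could move few values, of the set or of single genes. The authors' table closely matched the scanner differences, the filters on dim probes reached Cenpf alone among the members, and 15 members had more than 1 probe. The WT median of LT-HSC minus MPP was -1.40 with quantile normalization, -1.12 with normexp and quantile normalization and -1.18 with normexp and the 75th percentile. Under the last 2 settings the cKO median was -0.82 and -0.89, and 13 and 15 genes were 2-fold lower in cKO LT-HSC than in cKO MPP, in place of 26. The share of all genes that was 2-fold lower also fell, to 1.68% and 2.00% in place of 6.84%. Averaging the probes of each gene, or taking the second brightest, gave 1 gene 2-fold higher in cKO MPP and 1 that was 2-fold higher in WT LT-HSC than in WT MPP, in place of 0. At 1.5-fold, 14 genes (33.3%) were higher and 4 (9.52%) lower in cKO LT-HSC than in WT LT-HSC, against 21.2% and 15.4% of all genes. In cKO MPP, 2 (4.65%) were lower, against 9.57% of all genes. Nuf2 reversed to 0.18 in WT LT-HSC minus WT MPP with the mean of probes, and Cdk1 to 0.083 with the second brightest probe; the cause was not tested. Of single-gene values, 1577 stayed close, 106 moved and 2 reversed. A reversal was counted only where the main difference was at least 2-fold, so smaller differences that changed sign were counted as close or moved. With the second brightest probe, for example, the cKO minus WT difference of Ccnb1 in LT-HSC went from 0.81 to -0.24. Of the 32 genes 2-fold lower in LT-HSC in WT, 30 kept their direction and 23 their 2-fold size in every setting, of the 26 in cKO 26 and 10, and of the 9 that differed between genotypes in LT-HSC 9 and 6. Median scaling moved the cKO minus WT median in LT-HSC to 0.08, where that of all genes was -0.08.

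Among all genes at 2-fold, the share that was higher in cKO LT-HSC than in WT LT-HSC was 56.3%, against 42.7% with median scaling and 45.1% with normexp and quantile normalization. In cKO MPP against WT MPP it was 48.1%, against 64.6% with normexp and quantile normalization and 61.8% with normexp and the 75th percentile. In LT-HSC against MPP it was 54.1% in cKO, against 68.0% with normexp and quantile normalization and 64.6% with the percentile taken over probes measured on every array. In WT it was 36.4%, against 50.1% and 46.4% under the same 2 settings. In the additive fit 0 members passed the adjusted threshold under any setting run, while 48 and 47 of all genes were higher in LT-HSC with normexp and quantile normalization and over genes measured on every array, in that order.

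No paired analysis was possible because each group had 1 array, so replicate numbers mark no pairs beyond the groups themselves; the additive fit sets LT-HSC against MPP within genotype. With 1 array per group no replicate was left out. Signal over background limits Cenpf, Aurkb and, on the WT LT-HSC array, Nek2. To a lesser degree it limits Melk (28.4 in cKO LT-HSC, 31.9 in WT LT-HSC), Kif2c (29.2 and 33.0) and Ttk (39.0 and 38.6). On the cKO LT-HSC array the same holds for Cdc25c (34.7). Among the other genes of the pathway it also limits Espl1 (18.4 in cKO LT-HSC, 16.2 in WT LT-HSC). On the WT LT-HSC array it limits Esco2 (15.2) and Cenpn (21.9) too.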
